A study of Mus musculus with 2 samples.

Results

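The subject here is the binding of Myb around 8 genes that encode transcription factors of hematopoietic stem and progenitor cells (HSPCs): *Meis1*, *Meis2*, *Pbx2*, *Pbx3*, *Hhex*, *Hlx*, *Mecom* and *Prdm16*. The genes were chosen by the position of summits in the Myb peak list described here, so how many summits lie near them is a description and was not tested. A peak was counted for a gene if its summit, the base with the most Myb signal, lay in the gene or within 100 kb of it in the GENCODE vM21 annotation. This gave 63 of the 25793 listed peaks, or 0.244%, and they belonged to 7 of the 8 genes. The chromatin came from WT mice, from bone marrow depleted of lineage-positive cells (Lin–), a bulk population enriched for HSPCs in which stem cells are a minority. Myb was precipitated with an antibody, and nonspecific rabbit IgG gave the background. Each precipitation was sequenced as 1 library without replicates, so no difference below could be set against the variation between mice. In such a bulk population, strong binding in few cells and weak binding in many cannot be told apart. The data locate Myb on DNA and do not measure expression, and a summit near a gene does not show that the gene is controlled from it.

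Myb is a DNA-binding factor needed for the maintenance and proliferation of blood progenitors, and it recognizes a short core sequence that contains AAC. MEIS and PBX proteins are homeodomain factors of the TALE class that bind DNA together with HOX proteins, and MEIS1 is known for its role in stem cell maintenance and in leukemia. HHEX and HLX are homeodomain factors of other classes with roles in early hematopoietic and lymphoid development, and MECOM and PRDM16 are zinc finger proteins with PR domains that help maintain hematopoietic stem cells.

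The DNA under a few summits is given first, because it shows where a Myb motif lies relative to the summit. The motif searched was either CAACNG or TAACNG with G or T at the place marked N, on either strand, and it is in capitals. The first sequence is the strongest of the 63 summits with 149 bp on each side, and its only motif is at the far right end. After it come the next strongest summit of *Hhex*, the strongest distal summit of *Meis1* and the promoter summit of *Mecom*, both with a motif next to the summit, a weak *Meis1* promoter peak with an equally close motif, and a summit at neighbors of *Pbx2*. All but the first span 101 bp. Coordinates are mm10 and the plus strand is shown. The label of the *Mecom* summit means only that it lay 2569 bp from an annotated start site inside the gene.
Hhex intron 1, chr19:37435633-37435931: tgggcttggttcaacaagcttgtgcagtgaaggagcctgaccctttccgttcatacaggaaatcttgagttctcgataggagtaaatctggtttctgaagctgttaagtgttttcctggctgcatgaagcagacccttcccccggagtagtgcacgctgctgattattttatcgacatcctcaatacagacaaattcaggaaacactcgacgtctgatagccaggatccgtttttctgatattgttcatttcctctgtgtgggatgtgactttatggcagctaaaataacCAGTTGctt
Hhex +59.5 kb, chr19:37494211-37494311: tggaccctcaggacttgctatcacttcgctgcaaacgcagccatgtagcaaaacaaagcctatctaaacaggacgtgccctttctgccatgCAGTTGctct
Meis1 downstream, chr11:18878228-18878328: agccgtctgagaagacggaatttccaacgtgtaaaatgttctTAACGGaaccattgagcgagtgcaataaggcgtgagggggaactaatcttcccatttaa
Mecom internal promoter, chr3:30506868-30506968: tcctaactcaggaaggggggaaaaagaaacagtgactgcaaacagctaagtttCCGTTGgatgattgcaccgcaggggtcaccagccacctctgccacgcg
Meis1 promoter, intron 2, chr11:19015618-19015718: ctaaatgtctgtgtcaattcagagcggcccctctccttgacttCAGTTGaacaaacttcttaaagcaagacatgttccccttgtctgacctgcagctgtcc
Atf6b and Fkbpl, in the Pbx2 window, chr17:34646895-34646995: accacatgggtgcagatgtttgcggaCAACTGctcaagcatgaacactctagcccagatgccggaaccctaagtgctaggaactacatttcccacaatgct

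By position, 15 of the 63 peaks were promoter peaks, with the summit within 3 kb of an annotated start site of the gene itself. Another 11 were in introns outside those promoter windows, none was in an exon outside them, and 37 were distal, outside the gene. Of the distal summits, 17 were within 3 kb of a start site of another gene, 3 were inside another gene and 17 were intergenic. A listed peak in the window was found for 7 of 8 members, against 76.6% of 21938 protein-coding genes. A promoter peak was found for 6 of 8, against 39.9% of protein-coding genes. Since these counts are what the genes were picked for, nothing is read from their excess.

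The members differed widely in how many summits they had and where. *Hhex* had 20 (3 promoter, 17 distal), *Meis1* 15 (5 promoter, 6 intronic, 4 distal), *Pbx2* 10 (all distal) and *Hlx* 7 (4 promoter, 3 distal). *Mecom* and *Pbx3* had 4 each, *Prdm16* had 3 and *Meis2* had none. The windows ranged from 205 kb for *Hlx* to 797 kb for *Mecom*, so the same counts were also taken per length. On that scale *Hhex* had 9.71 summits per 100 kb of window, *Pbx2* 4.85, *Meis1* 4.42, *Hlx* 3.41, *Pbx3* 0.996, *Prdm16* 0.576 and *Mecom* 0.502. The median over protein-coding genes was 1.50 per 100 kb, with quartiles of 0.342 and 3.45. Thus 3 members lay above the upper quartile and *Hlx* was just under it. The longest genes, *Pbx3*, *Mecom*, *Prdm16* and *Meis2*, lay below the median, *Meis2* with no summit.

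**Figure D1:**
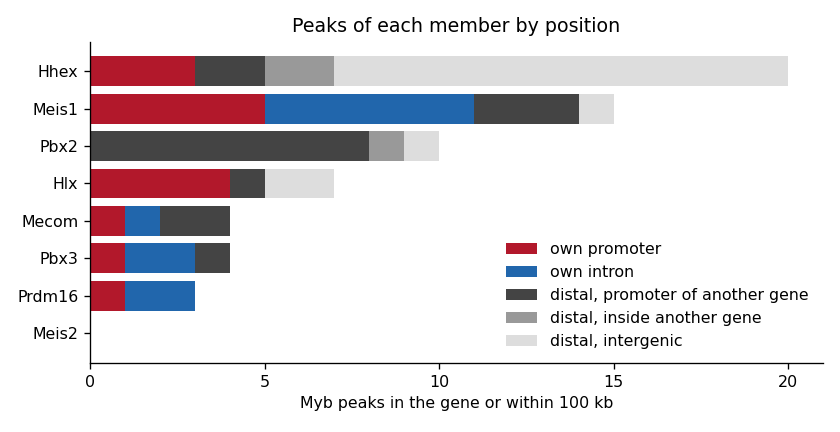
Number of Myb peaks (x axis) for each member (rows), with colors for the position of the summit. *Hhex* has 20 peaks, mostly intergenic, *Meis1* has 6 of its 15 in its own introns, and the 10 peaks of *Pbx2* hold none of its own.

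As a group the 63 peaks were of ordinary strength. Strength is given as the fold enrichment, the ratio between the Myb signal and the local IgG signal where the peak is highest. Its median was 4.21-fold (95% interval 3.71 to 5.07) against 4.51-fold (4.48 to 4.55) over all peaks. The medians were 4.43-fold in the promoter peaks (2.82 to 6.69), 3.71-fold in the intronic peaks (2.94 to 6.97) and 4.48-fold in the distal peaks (4.03 to 5.29), and these intervals overlap. Peak width was more unequal, with a median of 847 bp in promoter, 360 bp in intronic and 478 bp in distal peaks, against 577 bp over all peaks. A fold enrichment of at least 10 was reached by 2 of the 63 peaks, both of *Hhex*, against 4.47% of all peaks. A q-value of at most 0.05 was held by 55 of 63, or 87.3% (76.5 to 94.4), against 92.8% of all peaks. The median number of Myb reads at a summit, recovered from the listed values, was 18 in both the member peaks and the whole list, and 50.8% of the member summits had under 20 reads. Intervals on reads and shares cover counting error alone, and peaks close together, like copies from PCR, are not independent.

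Facts of the whole list bear on what these cells were. The progenitor marker genes reported here (*Kit*, *Cd34*, *Flt3*, *Spi1*, *Gata2*, *Runx1* and *Tal1*) each had a summit in the gene or within 3 kb of it. None of 4 hepatocyte and none of 4 neuron marker genes had one, and of 4 markers of mature blood lineages only *Cd79a* did. Expression of the markers was not measured here. A q-value limit of 0.05 is stated for the calls, yet 1867 of the 25793 listed peaks had a larger value, so the deposited list and that limit disagree and a listed peak need not have passed it. The depth of the library is not given in the peak list.

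*Hhex*, a homeobox repressor gene of 5.9 kb (chr19:37434810-37440731, plus strand), held the strongest peak of the set. Its summit had 106 reads (95% Poisson interval 86.8 to 128) and was 29.97-fold enriched, the second highest fold of all 25793 peaks. The background there was 1.75. This and every background below is in scaled units, in which 1 read counts as 0.769, so it cannot be divided into the reads directly. The peak spanned 2945 bp (chr19:37434237-37437181), with the summit 0.972 kb past the outer start and 957 bp before the second annotated start, in intron 1 of the main transcript and in an exon of another annotated one. Only 1 protein-coding gene had a higher promoter peak. Another promoter summit, 1.0 kb upstream and next to the long noncoding RNA *Gm38345*, was 3.43-fold enriched with 21 reads. The last, in an intron of the main transcript but in an exon of another annotated one, was 4.43-fold enriched with 14 reads. The upper limits of both read intervals, 32.1 and 23.5, lay far below the interval of the strongest summit.

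The distal summits of *Hhex* were mostly on its downstream side, 12 against 5 upstream. The strongest was 59.5 kb past the start (peak chr19:37493611-37494861), with 42 reads (30.3 to 56.8), 10.9-fold enrichment and rank 803 of all peaks. It stood in a run of 4 summits between 53.8 and 68.4 kb, of which the others were 6.08-fold, 5.29-fold and 2.66-fold enriched. A second run began with a summit at 89.2 kb (8.33-fold, 26 reads) and one at 93.9 kb (7.45-fold, 25 reads). It went on with weaker summits at 95.2, 96.4 and 103 kb, of 1.90-fold, 3.42-fold and 4.21-fold. The summit at 95.2 kb had 16 reads over a background of 6.0, a −log10 q-value of 0.0554 and the lowest fold of the 63. On the upstream side the highest fold was 7.01 with 54 reads, in a peak of 2633 bp at the promoter of *Kif11*, a mitotic kinesin. The nearest protein-coding start was that of *Hhex* for 8 of its 20 summits, and for the others it was that of *Kif11* or, from 59.5 kb onward, of the exocyst gene *Exoc6*. The summit farthest inside the 100 kb limit was 97.0 kb past the gene end (4.21-fold, 14 reads), and the first beyond it was at 107 kb (4.40-fold, 15 reads).

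**Figure D2:**
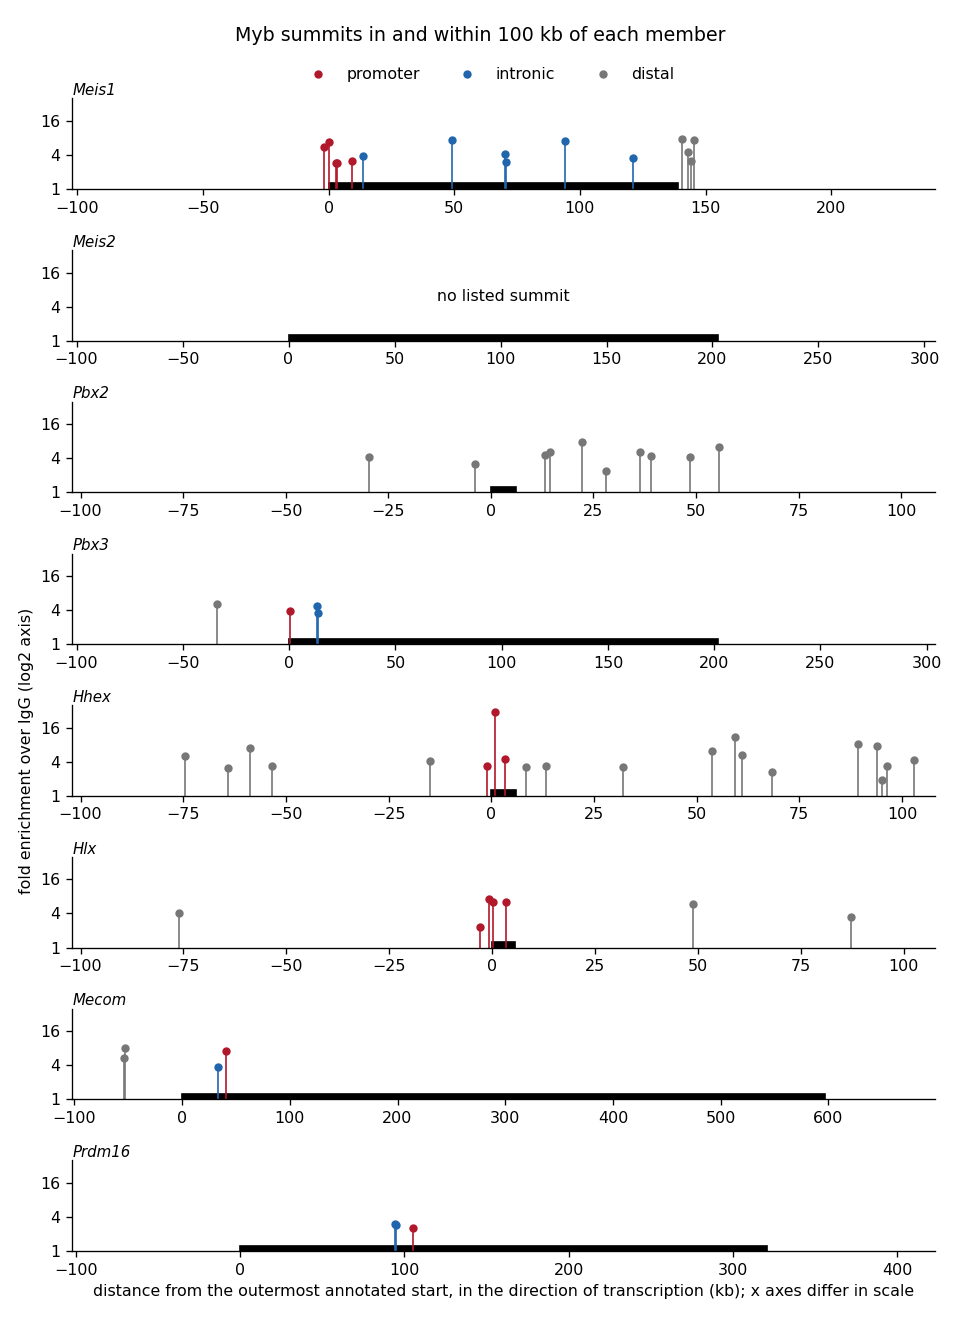
Fold enrichment of each Myb summit (y axis, log2 scale) against its distance from the outermost start of the gene in the direction of transcription (x axis, kb, scaled per gene). The black bar is the gene. *Hhex* shows 1 summit at 29.97-fold and 2 runs downstream, *Meis1* shows summits from its start to just past its end, and *Meis2* shows none.

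*Hlx*, the other homeobox gene of this kind (5.5 kb, chr1:184727140-184732619, minus strand), had its summits packed at the gene. The 4 promoter summits were 7.17-fold enriched at 877 bp upstream (22 reads), 6.35-fold at 134 bp inside (20 reads), 6.49-fold in intron 3 (24 reads) and 2.34-fold at 2867 bp upstream (20 reads over a background of 6.0). The last did not reach a q-value of 0.05 and was nearer to the noncoding RNA *Gm34342*. The other 3 promoter summits had overlapping read intervals, from 12.2 to 35.7, so no order among them can be read. Outside the gene, an intergenic summit 48.9 kb downstream of the start was 5.80-fold enriched with 18 reads. Another, 87.3 kb from the start, was 3.43-fold enriched. A summit at the promoter of *Marc1*, which encodes a mitochondrial reductase, was 4.03-fold enriched.

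*Meis1*, the HOX cofactor of stem cells (139 kb, chr11:18879817-19018985, minus strand), had summits spread from the promoter through the introns to just past the end of the gene. At the promoter, the summit 66 bp from an annotated start site was 6.69-fold enriched with 24 reads (15.4 to 35.7). A summit 1.7 kb upstream was 5.46-fold enriched with 17 reads. Inside the gene, 2 summits at 2.9 and 3.3 kb were both 2.82-fold with 17 reads over a background of 4.0. The fifth, near an internal start and the noncoding RNA *Gm16140*, was 3.15-fold and did not reach a q-value of 0.05. The summit at 3.3 kb and the fifth were 3046 and 9018 bp from the nearest protein-coding start. Both counted as promoter peaks only through the start of a noncoding transcript of *Meis1*. Of the 6 intronic summits, 2 stood above the rest in fold: 1 in intron 7 at 48.9 kb, with 7.30-fold and 23 reads (14.6 to 34.5), and 1 in intron 8 at 94.0 kb, with 6.97-fold and 21 reads. The other 4 lay between 3.05-fold and 4.17-fold with 9 to 13 reads, and the weakest of them did not reach a q-value of 0.05.

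The highest fold of *Meis1* was outside the gene. It was an intergenic summit 1.5 kb past the gene end, with 24 reads (15.4 to 35.7) and 7.60-fold enrichment. A summit 6.1 kb past the end, at the noncoding RNA *8430419K02Rik*, was 7.30-fold enriched with 23 reads, and 2 between them were 4.44-fold and 3.11-fold. The strongest promoter, intronic and distal summits of *Meis1* thus had 24, 23 and 24 reads, and no class stood above another. *Meis1* had no listed summit between 1.7 kb and 100 kb upstream, and the next ones were 185 kb upstream and 126 kb past the gene end. All 15 summits had *Meis1* as the nearest protein-coding start, but only 4 when noncoding genes were included. A share of 99.0% of protein-coding genes had fewer summits inside the gene and outside its promoter windows than the 6 of *Meis1*, which is also a long gene.

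*Meis2*, the paralog (203 kb, chr2:115863064-116065839, minus strand), had no listed summit within 100 kb. Its 16 annotated start sites gave 35.6 kb of promoter window, against 12.98 kb for *Meis1*. The nearest listed summits were 907 kb upstream (6.08-fold) and 1208 kb downstream (4.69-fold). An empty window was held by 23.4% of protein-coding genes and by 30.3% of the 982 genes whose window was at least as long. The weakest listed summit anywhere had 7 reads, and a peak list does not show what lay below its threshold, so binding at *Meis2* was not detected rather than absent.

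The PBX genes encode partners shared by MEIS and HOX proteins. *Pbx3* (202 kb, chr2:34171457-34373142, minus strand) had a promoter summit 187 bp inside the gene, 3.82-fold enriched with 12 reads (6.20 to 21.0) in a peak of 195 bp. In intron 2 it had summits of 4.78-fold (14 reads) and 3.53-fold (10 reads). Its distal summit was 33.8 kb upstream, 10 bp from a start site of *Mapkap1*, a subunit of the mTORC2 kinase complex, and was 5.05-fold enriched with 15 reads. The read intervals of all 4 overlap. They all passed a q-value of 0.05.

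*Pbx2* (6.1 kb, chr17:34591266-34597400, plus strand) lies among many short genes and had 10 summits in its window but none in the gene or at its 5 start sites. The nearest, 3.8 kb upstream, was 3.14-fold enriched with 15 reads, at *Notch4*, a Notch receptor gene, and *Gpsm3*. Of the 10, 8 were at promoters of other genes, and for none was *Pbx2* the nearest protein-coding start. The highest was 7.77-fold with 29 reads (19.4 to 41.6), inside *Agpat1*, a phosphatidic acid synthesis gene, and *Egfl8*. Next was 6.29-fold with 26 reads, at *Atf6b*, an unfolded protein response factor, and *Fkbpl*. Summits at *Agpat1* and *Rnf5* were 4.60-fold and 5.21-fold, and those at *Ppt2* and *Prrt1* were 5.07-fold and 4.48-fold. The remaining 3 had 4.18-fold at *Notch4*, 4.20-fold between genes and 2.37-fold inside *Ppt2*, the last with a q-value above 0.05.

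*Mecom*, which gives rise to the EVI1 and longer MDS1-EVI1 proteins (597 kb, chr3:29951296-30548008, minus strand), had 1 promoter peak for its 16 start sites. It was 7.26-fold enriched with 27 reads (17.8 to 39.3) and lay 41.1 kb past the outermost annotated start and 2569 bp past an inner one. The nearest protein-coding start of *Mecom* was 2596 bp away, and the summit was in intron 1 of the coding transcript with the largest span. The inner position is thus relative to the outermost annotated start only. An intronic summit 5038 bp before the nearest start site was 3.71-fold with 12 reads (6.20 to 21.0). No summit was listed in the rest of the gene, including the start sites of the shorter transcripts. The distal summits were 53.4 and 54.5 kb upstream at the divergent promoters of *Mynn* and *Actrt3*, with 8.03-fold (30 reads) and 5.44-fold (27 reads).

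*Prdm16* (321 kb, chr4:154316125-154636873, minus strand) had the lowest median fold of the members with a peak, 2.86. Its 3 summits were all in intron 1, between 94.2 and 105 kb from the start. They were 2.94-fold (14 reads), 2.86-fold (21 reads over a background of 5.0) and 2.56-fold (12 reads) enriched, and only the second reached a q-value of 0.05. The last counted as a promoter peak because it was 2937 bp from the start of a noncoding transcript, just inside the 3 kb limit. The main promoter of *Prdm16* had no listed summit.

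**Figure D3:**
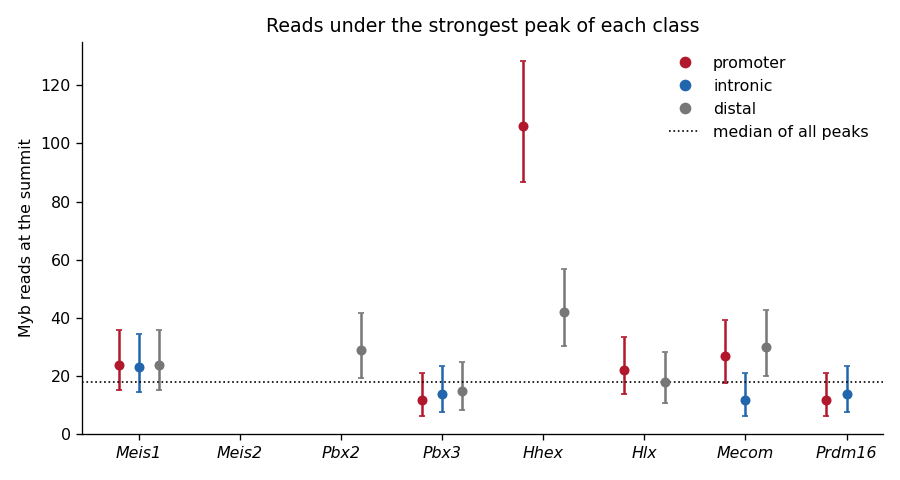
Myb reads at the summit of the strongest peak (by fold) in each class, with exact 95% Poisson intervals as bars, for each member on the x axis. The dotted line is the median of all peaks, 18 reads. The *Hhex* promoter summit at 106 reads stands apart from every other, while the classes of *Meis1* and *Pbx3* overlap.

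Sequence at the summits was compared next. A Myb motif lay within 50 bp of the summit in 9 of 63 peaks, 14.3% (6.75 to 25.4), against 16.7% of all peaks. In windows 500 bp from the member summits the share was 10.3% (13 of 126). The interval for the summits contains both values, so an excess of the motif was not detectable with 63 peaks. By class the motif was in 4 of 15 promoter, 0 of 11 intronic and 5 of 37 distal peaks, and 0 of 11 allows a share of up to 28.5%. By gene it was in 3 peaks of *Meis1*, 3 of *Hhex*, 2 in the *Pbx2* window and 1 of *Mecom*. Over whole peaks there were 61 motifs in 44.3 kb, 1.38 per kb, against 1.48 per kb over the full list.

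The *Hhex* peak at 29.97-fold had 5 motifs in its 2945 bp but none within 50 bp of the summit, the nearest lying 143.5 bp away at the end of the sequence shown. The *Hhex* summit at 59.5 kb had 1 at 43.5 bp. In *Mecom*, and at the end of *Meis1*, the motif center was 5.5 bp from the summit, at folds of 7.26 and 7.60, whereas the *Meis1* promoter peak with a motif at 4.5 bp was only 2.82-fold enriched. Of the 8 RefSeq promoters of 300 bp that were matched for 7 members (GRCm38.p6), 1 held a Myb motif, that of *Hlx*, against 28.3% of all 32851 promoters. A match is a description of letters, and its absence from a window says nothing further about Myb.

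Motifs of other factors were counted in the same windows on both strands. The E-box bound by TAL1 (CAGCTG or CAGATG), a factor of blood stem cells, was in 17 of 63 member peaks, 27.0% (16.6 to 39.7), against 14.2% of all peaks. Of these 17, 6 were in the *Pbx2* window, 4 at *Hhex*, 3 at *Meis1* and 2 at *Hlx*, and they were in 11 distal, 5 promoter and 1 intronic peak. The intervals account neither for neighboring peaks nor for the number of motifs counted, and no difference was tested. GATA letters, NGATAA with A or T first, were in 14.3% of member peaks against 13.8% of all. ETS letters, NGGAAG with A or C first, were in 12.7% (5.65 to 23.5) against 20.4%. The shares were 9.52% against 9.79% for RUNX (TGTGGT), and 7.94% against 6.16% for CEBP (TTGCNNAA). The members' own kinds of motif were rare: MEIS (TGACAG) in 4 peaks, 6.35% against 8.02%, and PBX-HOX (TGATNNAT) in 3, 4.76% against 2.77%. The GATA form that starts with T and the PBX-HOX letters can share bases. All 6 peaks with the RUNX letters were distal.

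**Figure D4:**
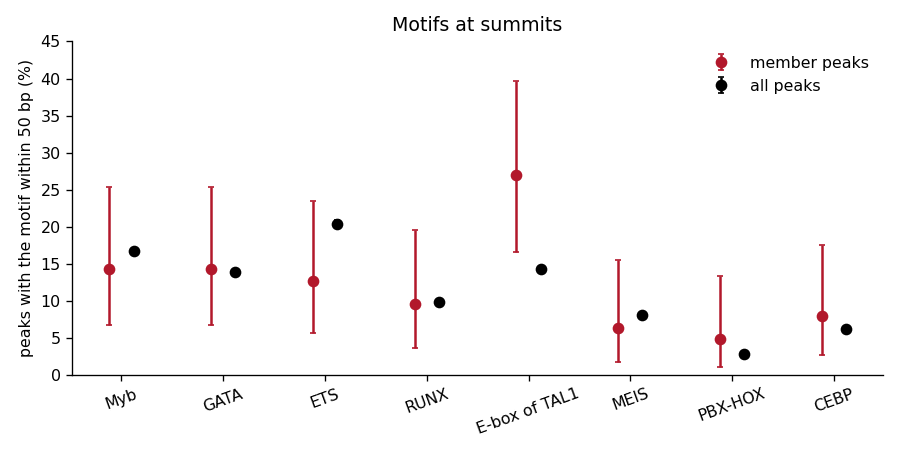
Share of peaks with each motif within 50 bp of the summit (y axis, percent) for the 63 member peaks (red, exact 95% intervals) and all 25793 peaks (black). The E-box is at 27.0% against 14.2%, and 6 of its 17 member peaks are in the *Pbx2* window. No difference was tested. The intervals account neither for neighboring peaks nor for the number of motifs counted.

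Related genes gave a wider view of the families. Among 7 other TALE homeobox genes and *Pbxip1*, which encodes a PBX-binding protein, 5 of 8 had a promoter peak, against 39.9% of all protein-coding genes. It was at least 5-fold in *Tgif1*, a repressor of TGF-β signaling (17.8-fold, 66 reads, 51.0 to 84.0), and *Pknox1*, a partner of PBX proteins (9.62-fold, 38 reads, 26.9 to 52.2). Among 13 other PR-domain genes, 8 had a promoter peak against the same 39.9%, with at least 5-fold in *Prdm10* (12.2-fold, 62 reads), *Prdm6* (6.34-fold), *Prdm15* (6.26-fold) and *Prdm2* (5.67-fold). The strongest promoter peak of each of the 8 exceeded the 2.56-fold of the *Prdm16* promoter peak, the lowest being 3.44-fold in *Prdm9*. The rest of the 13 had no promoter peak. Of the Hox genes known as partners of MEIS and PBX, *Hoxa7*, *Hoxa9*, *Hoxa10* and *Hoxb4* all had a promoter peak (against 39.9%), at 4.87-fold to 5.67-fold, and *Hoxa9* and *Hoxa10* shared the same peak.

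The genes with the layout most similar to single members were found over all protein-coding genes by the distance between their numbers of promoter, in-gene and flanking peaks and their highest fold, each on a log2 scale, in this 1 library. For *Meis1* it was *Bach2* (4 promoter, 6 in-gene and 4 distal peaks, highest fold 7.64), at a distance of 0.263. For *Hhex* it was *AI467606* (3, 0 and 16, highest fold 28.0), at 0.127. The others were *Creb3l4* for *Pbx2*, *Ormdl3* for *Pbx3*, *Cry2* for *Hlx* and *Mkln1* for *Prdm16*. *Meis2* was not matched, since its empty window was shared with the 23.4% of genes given above.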

How the data were processed

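The Myb peak list of 1 ChIP-Seq library of WT Lin– bone marrow cells was used. The IgG library had no file of its own here and entered as the background of the calls. Per the submitters' processing notes and the study's methods, the authors used Cutadapt 1.15 for trimming, BWA 0.7.13 for alignment to mm10 and Picard for duplicates, and called narrow peaks with MACS2 2.1.1.20160309 against IgG, keeping those overlapping between pseudo-replicates, which are subsets of 1 library. The deposited fold enrichment is a ratio of the Myb signal to the IgG background at the summit, and the authors deposited p- and q-values as −log10. These belong to single peaks and were used only to describe them.

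Positions were assigned in GENCODE vM21 (GRCm38). Read numbers were recovered from fold and p-value together: MACS2 computes the fold as (pileup + 1)/(background + 1) and p from the Poisson distribution, and a scale of 0.769 gave whole reads in 100% of rows within 0.001 on −log10 p. Backgrounds are given on the scaled pileup and not as whole reads. Intervals are exact Poisson for reads, exact binomial for shares (both 95%) and from order statistics for medians. The motif search and classes were tested on simulated data. Work was done in Python 3.11.15 with pandas 2.3.3, scipy 1.17.1 and pysam 0.24.0. No test across peaks was run, as peaks are not replicates.

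The members, gene lists and motifs were chosen with earlier results of these data known. Named peaks are the strongest of each class, every promoter peak and every peak of at least 10-fold, and neighbors are named where such a summit lies in them or within 3 kb of their start. Some further peaks were named after their values were seen. A progenitor marker and the gene most like *Mecom* are not reported here. Alternatives covered q-value limits, reach, promoter width, motif window and form, and assignment to the nearest start.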

Additional observations from a re-analysis of the deposited data

How the results depend on the processing

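Raising the limit on −log10 q to 5 left 27 of the 63 peaks (7 promoter, 2 intronic, 18 distal), with a median of 6.69-fold and a Myb motif share of 25.9%. The motif share of all listed peaks at that limit was not computed, so no excess can be read from the 25.9%. A limit of 2 left 7 intronic peaks and a median of 5.21-fold. A reach of 50 kb left 21 distal peaks, 10 kb left 35 peaks with 9 distal, and the gene with 3 kb on each side left 28 with 2 distal. Promoter windows of 1 kb and 500 bp gave 7 and 4 promoter peaks, and start sites of protein-coding transcripts only gave 12. Assigning each peak to its nearest start left 17 peaks with 3 intronic and 2 distal, or 37 with 11 distal when the start was protein-coding. The motif share was 7.94% within 25 bp, 38.1% within 100 bp and 55.6% with the shorter form AACNG, against 8.68%, 30.0% and 54.3% of all peaks. In all, 53 recomputed totals were classed as close and 22 as moved, as were 73 and 32 values of single members. The class of close values was loose. It held the motif share of 7.94% within 25 bp, against 14.3% in the main setting. It also held 16 intronic peaks with a promoter window of 500 bp, against 11. Ranked per 100 kb instead of by count, *Meis1* and *Pbx2* exchanged places and *Mecom* went from 5 to 7. The strongest peak was the same by fold and by q-value in 5 of 7 members.

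With 1 library, spread between mice is unknown. Summits of 9 to 30 reads have wide intervals, so most orders among them cannot be read. Weak peaks depend on the threshold, and binding below it is not seen. Windows differ in length and in how many other genes they hold, and a promoter class depends on how many start sites are annotated.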
